A study of Mus musculus with 24 samples.

Results

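The response of mpkCCD cells to dDAVP was examined as 1 effect over 4 exposure times, with 12 dDAVP libraries set against 12 Vehicle libraries, all 24 of the series. The cells are an epithelial line from the mouse kidney cortical collecting duct, wild type on the C57BL/6 strain, used at passage 10-11. They were grown on permeable filters for 6 days and kept in minimum medium for 24 h before dDAVP, a vasopressin analogue, or Vehicle was given from the basolateral side. RNA was taken at 3, 6, 12 and 24 h, and each treatment had 3 libraries at every time. The counts covered 54432 genes, 29743 of which had enough reads to be tested, and the 12747 whose group mean reached 5 CPM (counts per M counts, TMM-scaled) in at least 1 group are described. Pooling was used to look at effects under 2-fold and at lowered genes. Whether replicates came from separate cultures is not stated, and p-values therefore reflect library-to-library spread that may be technical. A cell line of 1 origin stands for the principal cells of the duct here.

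Vasopressin acts on principal cells through the V2 receptor, which couples to Gs and adenylyl cyclase. The cAMP formed activates protein kinase A, which moves the water channel Aqp2 to the apical membrane and, through CREB family factors and other routes, changes transcription. The pathway is restrained by phosphodiesterases, Gi-coupled receptors and anchoring proteins that place the kinase and the phosphodiesterases together.

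Totals were 18.9 to 27.6 M (mega) estimated counts in dDAVP libraries and 17.2 to 24.0 M in Vehicle libraries. Olfactory and vomeronasal receptor genes, which serve the sensory epithelia of the nose, held 0.135% to 0.509% of the counts in dDAVP libraries (median 0.275%) and 0.177% to 0.901% in Vehicle libraries (median 0.475%). The model held time as a block and the log2 of this share as a covariate, since the share differed between treatments and moved with most genes. The summed level of 12 markers of the duct epithelium was 5023 to 7557 CPM in dDAVP libraries and 3831 to 6302 CPM in Vehicle libraries, a sum that includes Aqp2 and the keratins. The summed markers of fibroblasts (8 genes) stayed at or under 13 CPM in dDAVP libraries and 19.4 CPM in Vehicle libraries. Those of immune and endothelial cells (10 genes) reached 27.4 CPM in dDAVP libraries and 32.5 CPM in Vehicle libraries. Those of proximal tubule and thick limb (11 genes) spanned 54.7 to 72.5 CPM in dDAVP libraries and 70.2 to 79.0 CPM in Vehicle libraries. Those of intercalated cells (12 genes) spanned 199 to 317 CPM in dDAVP libraries and 172 to 295 CPM in Vehicle libraries. No gene of these lists was at 0 in every library, and the part of such cells in the results was not tested.

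Over the 4 times dDAVP changed 268 of the 12747 genes (2.10%) at an adjusted p under 0.05 (quasi-likelihood test of edgeR, Benjamini-Hochberg method). Over all 29743 tested genes 295 were called (0.992%). Higher genes numbered 216 (1.69%) and lower genes 52 (0.408%). Most effects were small. The change was under 2-fold for 200 higher genes (1.57%) and 51 lower genes (0.400%), under 1.5-fold for 172 higher and 47 lower genes, and under 1.25-fold for 105 higher and 34 lower genes. The median called effect was 0.32 on the log2 scale among higher genes and -0.27 among lower genes, and the smallest called effects were 0.13 and -0.15. The median over all 12747 genes was 0.02. A further 27 genes, 19 higher and 8 lower, were called below 5 CPM.

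Single times showed fewer of these genes. At 3, 6, 12 and 24 h, in a model with the same covariate, 204 (1.60%), 93 (0.730%), 80 (0.628%) and 95 (0.745%) genes were called. The median standard error of a log2 fold change was 0.0918 at 3 h, 0.110 at 6 h, 0.0861 at 12 h and 0.0849 at 24 h, against 0.0513 for the pooled effect. Of the pooled calls, 97 of the 268 genes, 71 higher and 26 lower, were called at no single time, while 33 higher genes and 1 lower gene, Rasl11a, were called at all 4 times. The sign of the effect was the same at all 4 times for 214 of the 216 higher and 52 of the 52 lower genes. The pooled and single-time values rest on the same libraries, so this count is a description. In the other direction, 122 genes were called at a single time and not in the pooled model.

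**Figure D1:**
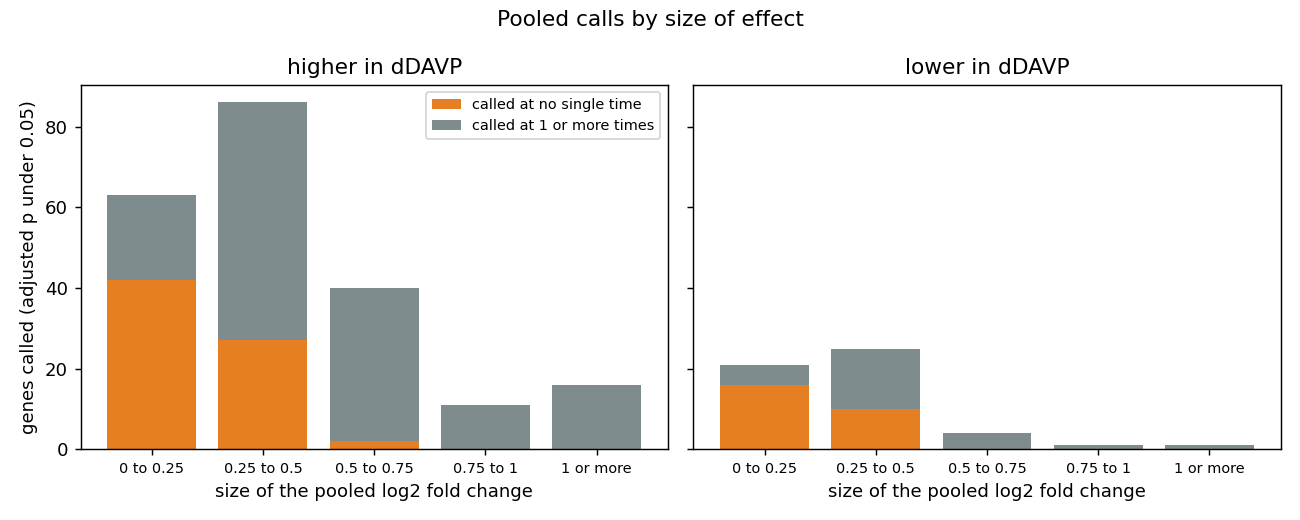
Number of genes called higher (left) or lower (right) in dDAVP over Vehicle, by the size of the pooled log2 fold change, split by whether any single time called the gene. Among genes with a change under 0.25, 42 of 63 higher and 16 of 21 lower genes were called at no single time, against 0 of 16 higher genes at 1 or more.

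The lower calls depended on the covariate and on where the effects were centred. With no covariate in the fit over all tested genes, 214 of the 216 higher and 18 of the 52 lower genes were called, and 6 of those 52 had a positive effect. The number of calls at 5 CPM or more was then 5583 (43.8%), 4241 higher and 1342 lower, and the median effect of all 12747 genes was 0.14. The fitted slope on the receptor share was negative for 200 of the 216 higher genes, 50 of the 52 lower genes and 81.4% of all 12747 genes. With no covariate and a fit and scaling on genes of at least 5 CPM alone, whose median effect was 0.01, 208 of the 216 higher and 49 of the 52 lower genes were called in their direction, and all 52 lower genes had a negative effect. That fit, tried after seeing the data, called 1502 higher and 1926 lower genes in all. With so many calls, a small adjusted p from it says little about any 1 gene named below. Without replicate 2 of Vehicle at 12 h, whose receptor share of 0.177% was the lowest among Vehicle libraries, 123 higher and 32 lower genes were called. With RLE size factors 158 higher and 36 lower genes were called, and limma on log2(TPM + 1), which changes both the measure and the test, called 70 higher and 65 lower genes.

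**Figure D2:**
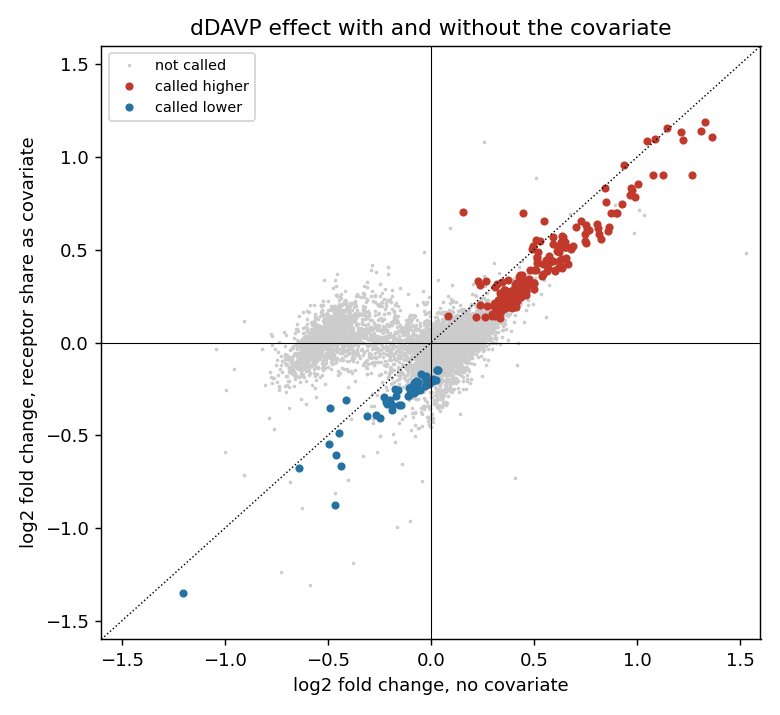
Log2 fold change of dDAVP over Vehicle with the receptor share as covariate (vertical) against the value with time alone in the model (horizontal), each point 1 gene of at least 5 CPM. Most genes called higher lie a little under the dotted line of equality, and genes called lower lie near 0 on the horizontal axis in most cases. Axes end at 1.6, which leaves out 8 called and 5 other genes.

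Rasl11a, a Ras-like small GTPase (chromosome 5, 146845071 to 146847726, GRCm38), was the only gene lowered by 2-fold or more. It had 2.81 to 9.32 CPM in dDAVP libraries (median 7.01) and 10.0 to 19.2 CPM in Vehicle libraries (median 14.1). No dDAVP library reached the lowest Vehicle library. The pooled log2 fold change was -1.35 ± 0.10 (SE, edgeR adjusted p = 1.1e-09). Its relative Rasl11b, a GTPase of the same family, had 40.3 to 89.2 CPM in dDAVP libraries (median 67.0) and 46.8 to 111 CPM in Vehicle libraries (median 66.4), groups that overlap widely. Its pooled effect was -0.37 ± 0.04 (adjusted p = 1.4e-06). With no covariate it was -0.19 over all tested genes (adjusted p = 0.0463) and -0.33 in the fit on genes of at least 5 CPM (adjusted p = 1.07e-06). Moved along the fitted slope to the mean receptor share, its medians were 60.6 CPM in dDAVP libraries and 78.8 CPM in Vehicle libraries. The slope is from the fit that gave the effect, so medians at the mean receptor share restate that fit, here and for the genes below.

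The next lower genes by p have varied roles. Angpt2, a ligand of the endothelial receptor Tie2 (chromosome 8, 18690263 to 18741562), had 51.7 to 88.8 CPM in dDAVP libraries (median 61.5) and 65.3 to 140 CPM in Vehicle libraries (median 84.1). The dDAVP libraries lay under the Vehicle libraries at 3 of the 4 times, and the pooled effect was -0.60 ± 0.06 (adjusted p = 2.48e-07). Mmp15, a metalloproteinase held in the membrane (chromosome 8, 95352268 to 95375080), had 6.23 to 11.0 CPM in dDAVP libraries (median 8.82) and 8.54 to 16.3 CPM in Vehicle libraries (median 11.2). It did not overlap between treatments at any of the 4 times, and its effect was -0.55 ± 0.07 (adjusted p = 1.32e-05). Only 3 lower genes separated in this way at all 4 times, as did 84 higher genes. Over all 12747 genes 89 (0.698%) did so in the direction of their effect. Frem2, a basement membrane protein needed in kidney development, had an effect of -0.33 ± 0.05 (adjusted p = 8.7e-05), with 82.1 to 157 CPM in dDAVP libraries and 98.6 to 189 CPM in Vehicle libraries. St6gal1, which adds sialic acid to N-glycans of surface and secreted proteins, had 20.4 to 29.0 CPM in dDAVP libraries and 19.4 to 37.4 CPM in Vehicle libraries (effect -0.41 ± 0.06, adjusted p = 6.44e-05). Both treatments overlap in these 2 genes over all times. Srpk3, a kinase of splicing factors known from muscle, had 3.02 to 5.15 CPM in dDAVP libraries and 3.54 to 7.0 CPM in Vehicle libraries, with an effect of -0.66 ± 0.09 (adjusted p = 2.67e-05). Its level was close to the 5 CPM limit. Srpk3 lost the call with limma on log2(TPM + 1) (adjusted p = 0.105) and kept it with no covariate over all tested genes (0.0243).

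**Figure D3:**
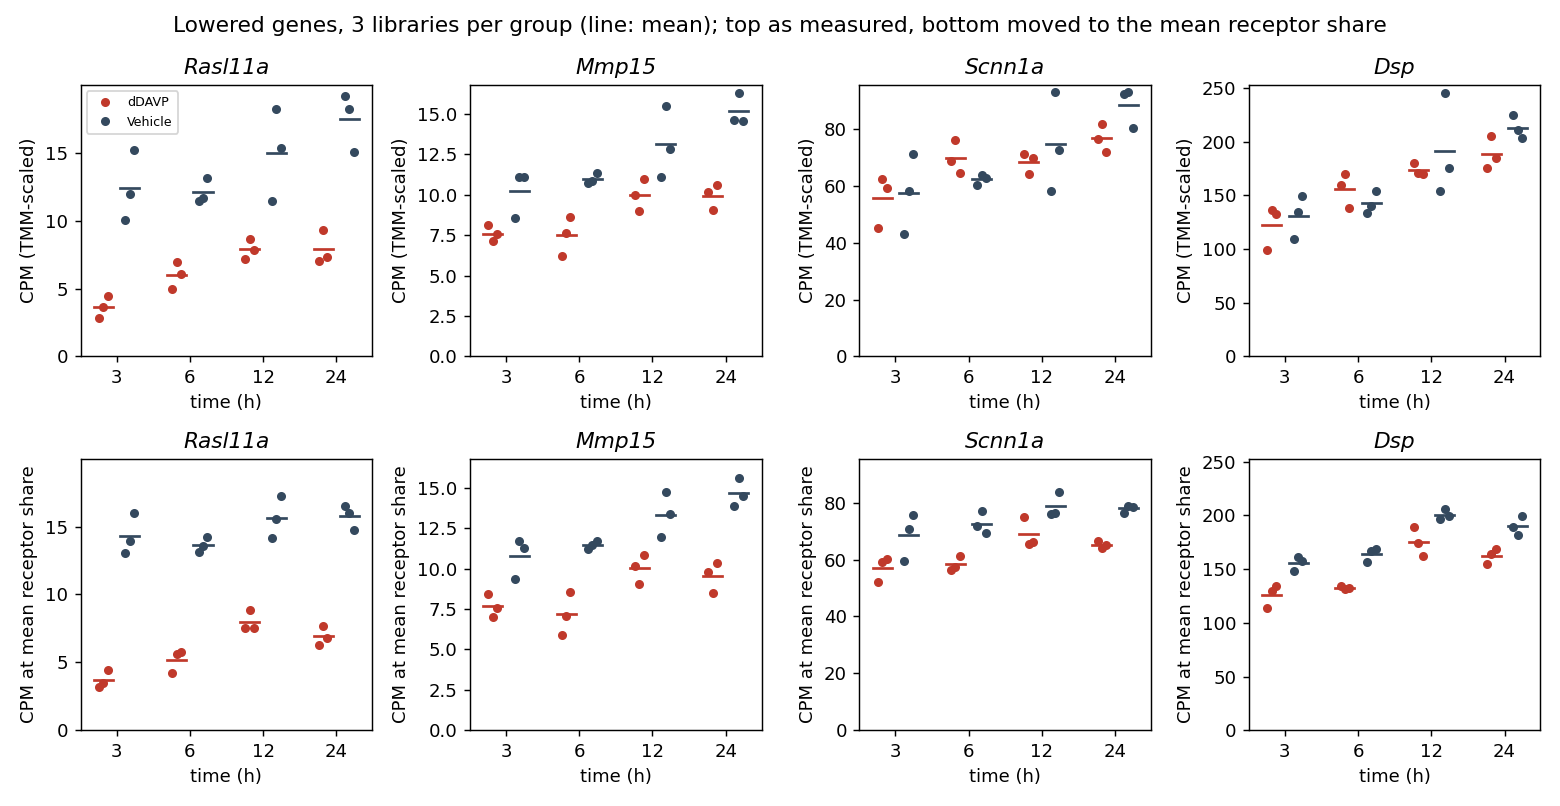
CPM of 4 lowered genes in each library at 3, 6, 12 and 24 h, dDAVP left of Vehicle, with group means as lines; the upper panels give scaled CPM and the lower panels the same values moved along each gene's fitted slope to the mean receptor share. Rasl11a and Mmp15 separate in both panels. Scnn1a and Dsp overlap as measured, and after the move Dsp separates at 4 times and Scnn1a at 3. The slope is from the fit that gave the effect, so the lower panels restate that fit.

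Other lower genes changed by under 1.25-fold. Dsp, the desmosome protein desmoplakin (chromosome 13, 38151294 to 38198577), had 99.6 to 205 CPM in dDAVP libraries (median 170) and 110 to 245 CPM in Vehicle libraries (median 154). The measured medians thus ran the other way from the fitted effect of -0.26 ± 0.04 (adjusted p = 7.07e-05). At the mean receptor share the medians were 144 CPM in dDAVP libraries and 175 CPM in Vehicle libraries. With no covariate the effect was -0.07 over all tested genes (adjusted p = 0.41). It was -0.21 in the fit without covariate on genes of at least 5 CPM (adjusted p = 0.000329), which called 1926 lower genes. Bicc1, an RNA-binding protein whose loss gives cystic kidneys in mice, had 154 to 221 CPM in dDAVP libraries (median 188) and 148 to 245 CPM in Vehicle libraries (median 183). Its effect was -0.24 ± 0.04 (adjusted p = 0.000127), and with no covariate -0.03 over all tested genes (adjusted p = 0.781) and -0.16 in the fit on genes of at least 5 CPM (adjusted p = 0.011). Itgb6, an integrin subunit of epithelia, had an effect of -0.24 ± 0.04 (adjusted p = 0.00132), and Cldn9, a tight junction claudin, one of -0.22 ± 0.04 (adjusted p = 0.00301). With no covariate neither was called over all tested genes (effects -0.10 and -0.01), and both were in the fit on genes of at least 5 CPM (-0.23 and -0.15, adjusted p = 7.95e-05 and 0.0219). Itgb6 lost the call with limma on log2(TPM + 1) (adjusted p = 0.127), and Cldn9 kept it (0.00139). Of 28 listed junction and polarity genes of at least 5 CPM, Dsp alone was lower and 0 were higher. Over all described genes the shares were 0.408% and 1.69%. That list does not hold Cldn9. The gene lists here and below were chosen with earlier results of these data known, so counts from them are a description. Of 18 integrin and laminin genes 2 were lower, Itgb6 and Lamc1, a laminin chain of basement membranes. Lamc1, at -0.21 ± 0.05 (adjusted p = 0.0491), lost the call in 17 of the 24 fits that left out 1 library, with the highest adjusted p of 0.339 without replicate 2 of Vehicle at 12 h.

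The epithelial sodium channel, which reabsorbs sodium in the duct, was lowered in 2 of its subunits. Scnn1g, the gamma subunit (chromosome 7, 121734479 to 121768475), had 5.57 to 18.3 CPM in dDAVP libraries (median 11.1) and 11.5 to 23.6 CPM in Vehicle libraries (median 16.7). The treatments did not overlap within any time, and Scnn1g was, with Rasl11a and Mmp15, the third lower gene of which this held. The pooled effect was -0.67 ± 0.11 (adjusted p = 0.000229), with -1.09 at 3 h and -0.37 at 24 h. Scnn1a, the alpha subunit (chromosome 6, 125320659 to 125344943), had 45.1 to 81.5 CPM in dDAVP libraries (median 69.1) and 42.9 to 92.9 CPM in Vehicle libraries (median 67.5). Its effect of -0.26 ± 0.04 (adjusted p = 0.000763) was called at no single time. With no covariate it was -0.05 over all tested genes (adjusted p = 0.566). It was -0.19 in the fit without covariate on genes of at least 5 CPM (adjusted p = 0.00371), which called 1926 lower genes. At the mean receptor share its medians were 62.6 CPM in dDAVP libraries and 76.2 CPM in Vehicle libraries. Scnn1b, the beta subunit, stayed under 5 CPM with an effect of -0.16 ± 0.17 (adjusted p = 0.861). Its spread does not allow a statement that it differed from the other subunits.

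Among transcription factors of the cAMP and immediate early response, Jun was the 1 lower gene, beside 5 higher genes of 27 (0.408% and 1.69% over all described genes). Jun (chromosome 4, 95049034 to 95052222), a subunit of AP-1, had 79.6 to 154 CPM in dDAVP libraries (median 104) and 75.1 to 182 CPM in Vehicle libraries (median 102). Its effect was -0.27 ± 0.04 (adjusted p = 0.000118), between -0.23 and -0.30 at each time and called at none of them. With no covariate it was -0.10 over all tested genes (adjusted p = 0.27). It was -0.23 in the fit without covariate on genes of at least 5 CPM (adjusted p = 8.82e-05), which called 1926 lower genes. At the mean receptor share the medians were 98.7 CPM in dDAVP libraries and 121 CPM in Vehicle libraries. The growth factor Fgf9 was also called at no single time, with 20.3 to 27.7 CPM in dDAVP libraries and 21.7 to 31.4 CPM in Vehicle libraries (effect -0.26 ± 0.05, adjusted p = 0.00199). The corepressor Cbfa2t3, with 5.24 to 7.38 CPM in dDAVP libraries and 6.52 to 9.88 CPM in Vehicle libraries, had an effect of -0.40 ± 0.08 (adjusted p = 0.00362), lost without replicate 2 of Vehicle at 12 h (0.191). Without the same library Sesn1, a sestrin induced by p53, lost its effect of -0.24 ± 0.05 (adjusted p = 0.0118, and 0.166 without it).

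**Figure D4:**
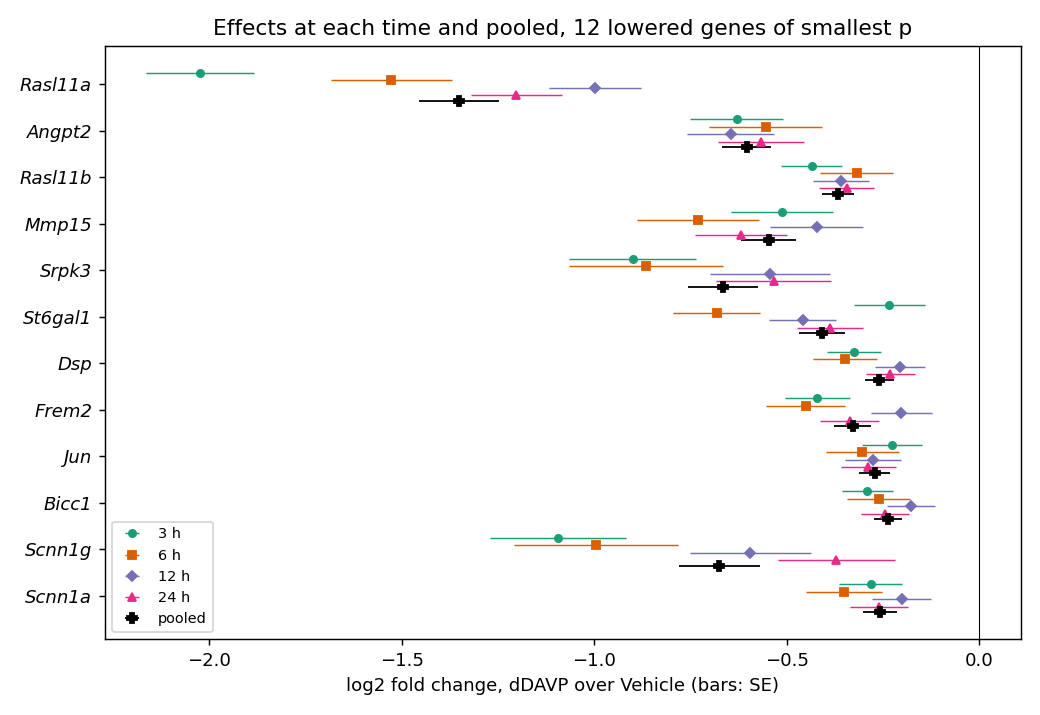
Log2 fold change of dDAVP over Vehicle at each of the 4 times (colours) and pooled (black), with standard errors, for the 12 lowered genes of smallest p. All points lie under 0, and the pooled bars are narrower than those of single times.

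P3h2, a collagen prolyl hydroxylase, was nearest under 2-fold among lower genes and the least stable of the named genes that fell most. It had 15.6 to 57.4 CPM in dDAVP libraries (median 40.6) and 21.3 to 83.2 CPM in Vehicle libraries (median 52.1). The effect was -0.88 ± 0.22 (adjusted p = 0.0392), with -0.16 at 3 h, close to 0 at 6 h, -1.69 at 12 h and -1.11 at 24 h, and was lost in 14 of the 24 fits without 1 library (up to 0.218 without replicate 2 of Vehicle at 12 h). In bulk RNA, fewer cells that express a gene and less of its RNA per cell cannot be told apart.

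In the main fit modest rises were called more often than modest falls (200 and 51 genes). This balance depended on the settings. With limma on log2(TPM + 1) the numbers were 63 and 64, and with no covariate on genes of at least 5 CPM 1487 and 1918. Adora1, the adenosine A1 receptor, which couples to Gi and lowers cAMP (chromosome 1, 134199223 to 134235431), had 103 to 137 CPM in dDAVP libraries (median 122) and 60.9 to 92.7 CPM in Vehicle libraries (median 77.8). Every dDAVP library was above every Vehicle library. The effect was 0.52 ± 0.04 (adjusted p = 1.25e-09), between 0.46 and 0.61 at single times. Avpi1, named for its induction by vasopressin (chromosome 19, 42123273 to 42129059), had 74.0 to 117 CPM in dDAVP libraries (median 91.2) and 45.4 to 70.4 CPM in Vehicle libraries (median 58.6), again with no overlap. Its effect was 0.51 ± 0.04 (adjusted p = 4.47e-09).

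In cAMP signalling the called genes were phosphodiesterases, an anchor, a kinase subunit and target genes. Of 13 genes of the V2 receptor, G proteins and cyclases at 5 CPM or more, 0 were called in either direction. A positive effect was found for 2 of the 13, and for 7853 of all 12747 described genes. Avpr2, the V2 receptor itself, had 23.7 to 66.1 CPM in dDAVP libraries (median 46.0) and 27.8 to 65.6 CPM in Vehicle libraries (median 36.8), with a pooled effect of -0.09 ± 0.07 (adjusted p = 0.759). Its sign was positive without the covariate. Rgs2, a brake on G protein signalling, was called higher at a level under 5 CPM (0.70 ± 0.08). Of 7 phosphodiesterases that break down cAMP, 4 were higher against 1.69% of all genes. Pde4b was past 2-fold (1.94 ± 0.08), and its modest companions were Pde4d, Pde4a and Pde7a.

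Pde4d (chromosome 13, 108449948 to 109953461) had 3.31 to 7.17 CPM in dDAVP libraries (median 5.03) and 1.68 to 4.89 CPM in Vehicle libraries (median 3.68). The treatments separated within each time although no single time called the gene, and the pooled effect was 0.65 ± 0.11 (adjusted p = 0.000438). Pde4a had 5.69 to 10.7 CPM in dDAVP libraries and 4.81 to 8.12 CPM in Vehicle libraries (effect 0.56 ± 0.09, adjusted p = 0.000389). Pde7a rose by 0.25 ± 0.05 (adjusted p = 0.00142), with 45.5 to 59.7 CPM in dDAVP libraries and 29.1 to 53.4 CPM in Vehicle libraries. Pde7a and Pde4d lost the call with limma on log2(TPM + 1) (adjusted p = 0.305 and 0.335), and Pde4a kept it (0.0460). With a block for each replicate number within a time (the replicate block), Pde7a lost it too (0.0544). Akap12, an anchor for protein kinase A (chromosome 10, 4266380 to 4359470), had 151 to 295 CPM in dDAVP libraries (median 208) and 73.2 to 109 CPM in Vehicle libraries (median 99.7), without overlap. Its effect was 0.90 ± 0.07 (adjusted p = 1.24e-09). The regulatory subunit Prkar2b was the other higher gene of 20 kinase and anchor genes, at 0.22 ± 0.05 (adjusted p = 0.00761, and 0.0688 without replicate 2 of Vehicle at 12 h).

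The 5 higher genes of the cAMP response were Nr4a1, Nr4a2, Sik1, Crem and Crtc1, the last at 0.22 ± 0.05 (adjusted p = 0.00846, and 0.148 without replicate 2 of Vehicle at 12 h). Nr4a1, an orphan nuclear receptor, had 26.2 to 61.9 CPM in dDAVP libraries (median 38.0) and 12.9 to 29.7 CPM in Vehicle libraries (median 20.1; effect 0.75 ± 0.09, adjusted p = 3.6e-06). Sik1, a kinase that holds CREB coactivators in the cytoplasm, rose by 0.59 ± 0.08 (adjusted p = 3.76e-05). Sik1 lost the call with limma on log2(TPM + 1) (adjusted p = 0.0529). Crem, a CREB relative with repressor forms, had 7.27 to 16 CPM in dDAVP libraries and 5.11 to 7.86 CPM in Vehicle libraries (effect 0.58 ± 0.09, adjusted p = 0.000119). Nr4a2 was nearest above 2-fold with Nipal1, a magnesium transporter family member (1.09 ± 0.15 and 1.08 ± 0.10). Nearest below were Rassf10, a Ras association domain protein, and the retinoic acid carrier Crabp2 (0.96 ± 0.10 and 0.90 ± 0.09).

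The cAMP response element, the site bound by CREB family factors, was looked for in RefSeq promoter windows (GRCm38.p6) as the letters TGACGTCA, which read alike on both strands, within 250 bases upstream of a start. It was found in 4 of the 155 higher genes with a window, 0 of the 38 lower genes with one, and 285 of 9225 genes of at least 5 CPM (3.09%). Over all gene symbols with a RefSeq window, 478 of 27025 (1.77%) held it in any of their windows. Windows were matched by symbol for 71.8% of higher, 73.1% of lower and 72.4% of all described genes, so the comparison is void for want of coverage. The 4 matches are shown for the reader as 60-base stretches, 5′ to 3′ on the strand of the gene, with the element in capitals. Arl4d lies at chr11:101665481-101665540 (plus strand), Ell2 at chr13:75707260-75707319 (plus), Ldha at chr7:46845744-46845803 (plus) and Slc25a36 at chr9:97111169-97111228 (minus). Those of Ell2 and Ldha lie inside the span that GENCODE gives the gene, upstream of the RefSeq start.
Arl4d: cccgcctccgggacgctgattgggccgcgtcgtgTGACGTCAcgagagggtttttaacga
Ell2: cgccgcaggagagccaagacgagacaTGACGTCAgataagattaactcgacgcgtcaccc
Ldha: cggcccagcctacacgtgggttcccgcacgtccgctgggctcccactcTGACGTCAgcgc
Slc25a36: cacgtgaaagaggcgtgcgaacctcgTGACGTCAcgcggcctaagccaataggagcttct
Of these genes Arl4d, a small GTPase of the Arf family, had 9.88 to 14.2 CPM in dDAVP libraries (median 11.2) and 4.17 to 8.39 CPM in Vehicle libraries (median 5.58), without overlap. Its effect was 0.82 ± 0.07 (adjusted p = 7.57e-09). The elongation factor Ell2, the lactate dehydrogenase Ldha and the mitochondrial carrier Slc25a36 were close to the threshold at 0.20 ± 0.05, 0.21 ± 0.05 and 0.23 ± 0.05. They lost the call without replicate 2 of Vehicle at 12 h (adjusted p = 0.306, 0.702 and 0.496), and in 19, 12 and 7 of the 24 fits without 1 library.

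**Figure D5:**
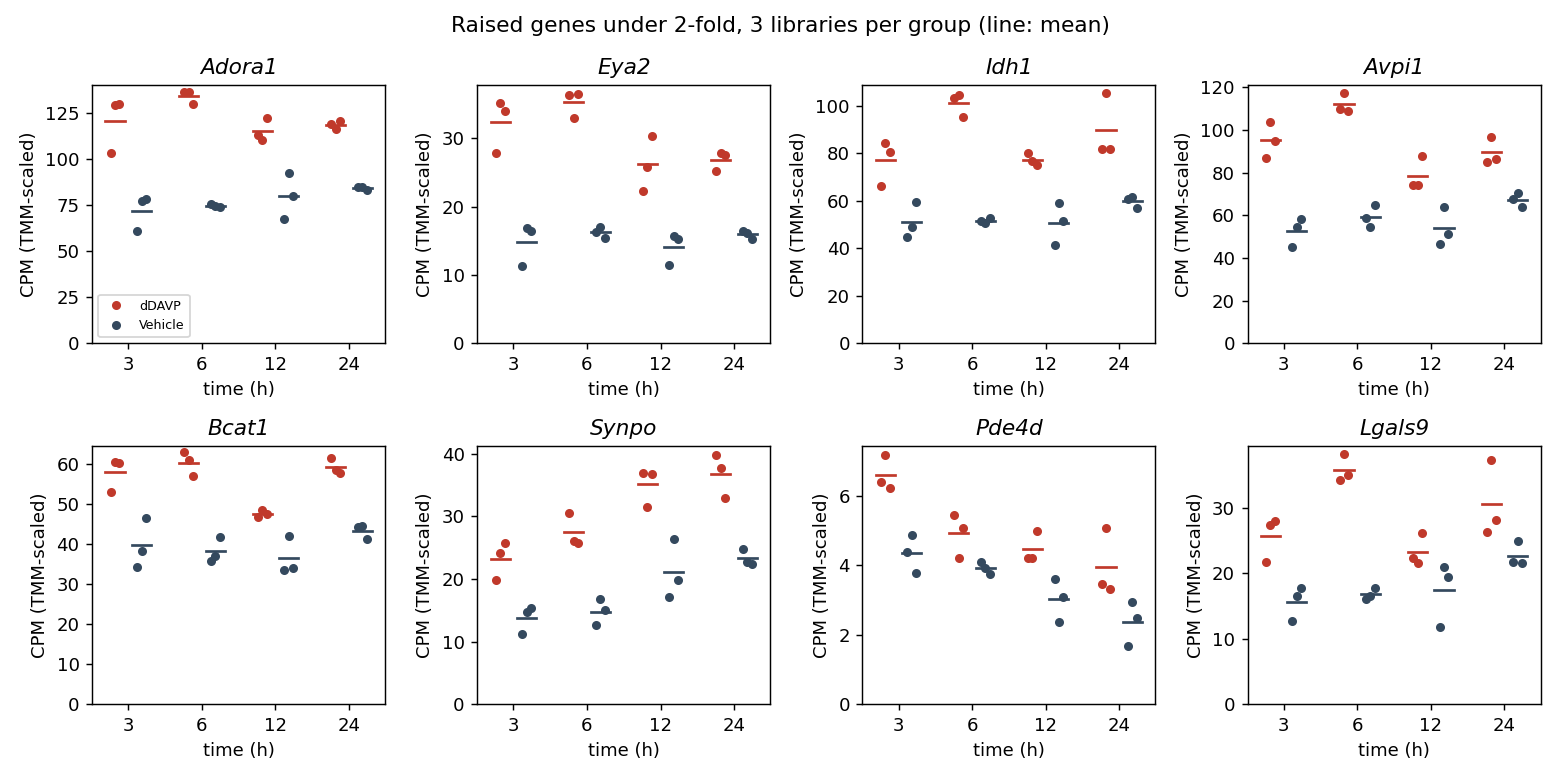
CPM (TMM-scaled) of 8 modestly raised genes in each library at 3, 6, 12 and 24 h, dDAVP left of Vehicle, with group means as lines. In all 8 panels the mean of dDAVP is above that of Vehicle at each time.

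Among cytoskeletal and surface genes, Add3, an adducin that caps actin filaments (chromosome 19, 53140443 to 53247399), had 99.7 to 160 CPM in dDAVP libraries (median 125) and 51.7 to 85.4 CPM in Vehicle libraries (median 61.6; effect 0.79 ± 0.07, adjusted p = 3.06e-08). Synpo, the actin-binding synaptopodin, had 19.8 to 39.8 CPM in dDAVP libraries and 11.1 to 26.5 CPM in Vehicle libraries (effect 0.61 ± 0.06, adjusted p = 7.98e-08). Add3 did not overlap over all times, and Synpo did not within any time. Synpo lost the call with limma on log2(TPM + 1) (adjusted p = 0.0531), and Add3 kept it (3.13e-05). Baiap2l1, which bends membranes at actin-rich protrusions, was at 0.18 ± 0.04 (adjusted p = 0.0311) and lost the call in 10 of the 24 fits without 1 library (up to 0.2 without replicate 2 of Vehicle at 12 h). Of 12 keratin, mucin and surface genes, a list chosen with earlier results of these data known, 5 were higher, against 1.69% of all described genes. The modest ones were Lypd3, a surface protein of stratified epithelia (0.85 ± 0.08, adjusted p = 2.18e-08), the membrane mucin Muc20 (0.42 ± 0.05, adjusted p = 2.59e-06), Krt23 (0.53 ± 0.13, adjusted p = 0.0273) and Krt19 (0.20 ± 0.04, adjusted p = 0.0184). Without replicate 2 of Vehicle at 12 h the keratins Krt23 and Krt19 lost the call (adjusted p = 0.214 for each), and Krt23 did so in 7 of the 24 fits without 1 library. Muc20 had 136 to 213 CPM in dDAVP libraries and 87.2 to 158 CPM in Vehicle libraries.

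Some enzymes of intermediary metabolism were also higher. Idh1, which makes NADPH from isocitrate in the cytosol (chromosome 1, 65158616 to 65186500), had 66.4 to 106 CPM in dDAVP libraries (median 81.9) and 41.2 to 61.4 CPM in Vehicle libraries (median 52.1), without overlap. The effect was 0.52 ± 0.04 (adjusted p = 3.87e-09). Bcat1, the cytosolic transaminase of branched-chain amino acids, had 46.7 to 63.0 CPM in dDAVP libraries (median 58.0) and 33.4 to 46.4 CPM in Vehicle libraries (median 39.6). The groups did not overlap, and the effect of 0.39 ± 0.04 (adjusted p = 6.99e-08) was the smallest of the 12 modest rises with the smallest p. Of 22 genes of fatty acid metabolism 4 were higher (1.69% over all described genes): Cpt1a, which admits fatty acids to mitochondria (0.52 ± 0.07, adjusted p = 3.12e-05), the desaturases Fads2 (0.28 ± 0.04, adjusted p = 9.06e-05) and Fads1 (0.18 ± 0.03, adjusted p = 0.00299), and the elongase Elovl6 (0.24 ± 0.04, adjusted p = 0.00112). Fads2 had 445 to 628 CPM in dDAVP libraries and 287 to 475 CPM in Vehicle libraries. Without replicate 2 of Vehicle at 12 h, Fads1 (0.0575) and Elovl6 (0.0782) lost the call.

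Of 32 genes of oxidative stress and conjugation 7 were higher and 0 lower, against 1.69% and 0.408% of all described genes. They included Srxn1, which repairs peroxiredoxins (0.30 ± 0.05, adjusted p = 0.000763), the carbonyl reductase Cbr3 (0.70 ± 0.15, adjusted p = 0.00963) and the aldo-keto reductase Akr1c13 (0.22 ± 0.04, adjusted p = 0.00362), the last 2 lost without replicate 2 of Vehicle at 12 h (0.0666 for each). Srxn1, Cbr3 and Akr1c13 all lost the call with limma on log2(TPM + 1) (adjusted p = 0.366, 0.0778 and 0.267). The related Akr1c19, not on that list, had 48.9 to 70.4 CPM in dDAVP libraries and 23.4 to 42.0 CPM in Vehicle libraries, without overlap (0.70 ± 0.07, adjusted p = 7.02e-08). Members of the Akr1c family are close in sequence, and reads may be split between them. Of 26 cholesterol synthesis genes 0 were called. A positive effect was found for 24 of the 26, and for 7853 of all 12747 described genes. The median of the cholesterol genes was 0.06, beside 0.02 for all described genes.

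Eya2, a transcriptional coactivator with phosphatase activity (chromosome 2, 165595032 to 165771727), had 22.3 to 36.5 CPM in dDAVP libraries (median 29.1) and 11.3 to 17 CPM in Vehicle libraries (median 15.9), without overlap. Its effect was 0.84 ± 0.07 (adjusted p = 2.49e-09). In growth factor signalling 3 of 27 genes were higher, against 1.69% of all described genes: the EGF receptor gene Egfr (0.33 ± 0.04, adjusted p = 1.1e-05), its ligand betacellulin, Btc (0.47 ± 0.08, adjusted p = 0.00106), and Dusp10, a phosphatase of stress-activated MAP kinases (0.63 ± 0.07, adjusted p = 3.75e-07). Egfr had 88.9 to 120 CPM in dDAVP libraries and 65.4 to 90.3 CPM in Vehicle libraries, so the groups touch only at their edges. Egfr and Btc lost the call with limma on log2(TPM + 1) (adjusted p = 0.351 and 0.0549), and Dusp10 kept it (0.0328). In prostaglandin synthesis Ptgs2, the inducible cyclooxygenase, was higher (0.45 ± 0.08, adjusted p = 0.00273). Pla2g4a, which frees arachidonic acid, was higher too (0.20 ± 0.04, adjusted p = 0.0198, and 0.231 without replicate 2 of Vehicle at 12 h). Ptgs2 and Pla2g4a lost the call with limma on log2(TPM + 1) (adjusted p = 0.272 and 0.816). Both also lost it with the replicate block (0.0509 and 0.0540).

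In transport, 4 of 17 duct genes were higher and 2 lower, against 1.69% and 0.408% of all described genes. Beside Aqp2 and Aqp5, which were past 2-fold, the sodium pump subunit Atp1b1 had 246 to 418 CPM in dDAVP libraries (median 343) and 195 to 322 CPM in Vehicle libraries (median 259; 0.25 ± 0.04, adjusted p = 0.000374). Atp1b1 lost the call with limma on log2(TPM + 1) (adjusted p = 0.220). Nedd4l, the ubiquitin ligase that removes the sodium channel from the membrane, was at 0.20 ± 0.04 (adjusted p = 0.0134, and 0.0666 without replicate 2 of Vehicle at 12 h). Sgk1, a kinase that acts on Nedd4l, was not called (0.07 ± 0.09, adjusted p = 0.891), nor was the basolateral water channel Aqp3 (-0.05 ± 0.09, adjusted p = 0.932), whose groups all stayed under 5 CPM. Of 21 genes of other ion transport 3 were higher (1.69% over all described genes), Kcnq1 (0.32 ± 0.06, adjusted p = 0.00365), Trpv4 (0.22 ± 0.04, adjusted p = 0.00628) and Kcnk1 (0.20 ± 0.05, adjusted p = 0.0399). Without replicate 2 of Vehicle at 12 h, Trpv4 (0.118) and Kcnk1 (0.355) lost the call, and Kcnk1 did so in 13 of the 24 fits without 1 library. Kcnq1 kept the call without that library (0.0456). Kcnq1, Trpv4 and Kcnk1 all lost it with limma on log2(TPM + 1) (adjusted p = 0.572, 0.288 and 0.534). They also lost it with the replicate block (0.0958, 0.0951 and 0.181).

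Among modest rises that no single time called, those of smallest p were Lnx1, Lgals9, Pde4d, Ptp4a3, Desi1 and Slc31a2. Lnx1, a ubiquitin ligase of the cell fate protein Numb, had 28.8 to 41.0 CPM in dDAVP libraries (median 34.7) and 19.0 to 32.1 CPM in Vehicle libraries (median 23.8; 0.28 ± 0.04, adjusted p = 0.000162). Lgals9, a galectin, had 21.6 to 38.2 CPM in dDAVP libraries (median 27.7) and 11.9 to 25 CPM in Vehicle libraries (median 17.8; 0.42 ± 0.07, adjusted p = 0.00021). Ptp4a3, a phosphatase held at membranes, had 8.72 to 11.0 CPM in dDAVP libraries and 7.75 to 9.78 CPM in Vehicle libraries (0.31 ± 0.05). Desi1, a deSUMOylating peptidase (0.24 ± 0.04), and Slc31a2, a copper transporter (0.26 ± 0.05), kept the call without any 1 library, as did the other 4. With limma on log2(TPM + 1), Lnx1, Pde4d, Desi1 and Slc31a2 lost the call (adjusted p = 0.0911, 0.335, 0.320 and 0.285). Lgals9 and Ptp4a3 kept it there. Pde4d, Ptp4a3 and Slc31a2 each lost the call in 1 of the fits that left out a time.

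Some lists had no called member at 5 CPM or more, against 2.10% called over all described genes, so that a count of 0 is near the background for lists of these sizes. These were apical vesicle traffic (27 genes), cell cycle and replication (37), TGF-beta and matrix (20), Wnt and Notch (21), heat shock (22), the circadian clock (17), lysosome and autophagy (30), cytosolic ribosomal proteins (77), the nuclear (76) and mitochondrial (13) respiratory chain, and the proteasome (36). All 77 ribosomal protein genes had a positive effect, as did 7853 of all 12747 described genes. The ribosomal median was 0.07, or 0.28 without the covariate. At the 5 CPM limit, Smim6 (highest group mean 5.05 CPM, effect 0.45) and Cited1 (5.31 CPM, 2.46) were the nearest called genes above, and Heyl (4.82 CPM, 1.00) and Scg5 (4.69 CPM, 1.33) the nearest below.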

How the data were processed

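Estimated counts per gene and TPM were deposited by the authors; the submitters' processing notes name Salmon 0.14.10 and the build GRCm38.p6 and no further settings. Counts carried no normalization and were rounded to whole numbers. Genes were named from GENCODE M21. TMM factors in edgeR 4.0.16 (R 4.3.3) ran from 0.814 to 1.326, and filterByExpr with the 8 groups chose the genes. All 24 libraries were fitted with an additive model of time, treatment and the centred log2 share held by 1457 receptor genes of the olfactory and vomeronasal families. Treatment was tested by quasi-likelihood with Benjamini-Hochberg adjustment over 29743 genes. A second model with 1 mean per group and the same covariate gave effects at each time and their dependence on time. The overlap of the covariate with treatment in the design would, at equal residual spread, inflate the variance of the treatment effect 1.42 times. The median standard error of the fitted effects was nonetheless 0.0513 with the covariate and 0.0720 without it. The pooled fit was also run on counts simulated from itself with independent libraries. Such counts cannot test the choice of covariate or scaling, or whether replicates are technical. Alternatives used DESeq2 1.42.0, limma 3.58.1 on log2 TPM of the deposited table, other covariates, scalings and filters, and sets of libraries. No library duplicated another (chi-square per gene between replicates 3.54 to 61.1). Figures used matplotlib 3.10.9.

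Genes were named by rule: the 12 modest rises and 12 falls of smallest p, those called at no single time, the largest falls, neighbours of the thresholds, up to 4 called members of each gene list, and 10 genes of the vasopressin response. Members, lists, covariate and rule were chosen with earlier results of these data known. Not every named gene is described. Some values are not reported here.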

Additional observations from a re-analysis of the deposited data

Results flagged for a closer look

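The effect of dDAVP differed between the 4 times for 71 of the 12747 genes of at least 5 CPM (0.557%; edgeR F test of 3 contrasts, adjusted p under 0.05), among them 29 of the 216 higher and 2 of the 52 lower genes, for which the pooled value is an average over unlike effects. Of the named genes these were Nr4a2 (adjusted p = 0.000212; 2.06, 1.07, 0.68 and 0.71 on the log2 scale at 3, 6, 12 and 24 h), Add3 (0.0037; 1.25, 0.97, 0.57 and 0.60), Lypd3 (0.0133; 1.20, 1.24, 0.78 and 0.52), Crabp2 (0.0117; 1.36, 1.30, 0.70 and 0.61), Cpt1a (0.0184; 0.95, 0.59, 0.35 and 0.32) and Akap12 (0.0244; 1.32, 0.98, 0.81 and 0.66). In these 6 genes the effect was larger at 3 h than at 24 h. The carbonyl reductase Cbr3 (0.0102; 1.55, 1.10, 0.11 and 0.46) and the actin-binding Cotl1 (0.0433; 1.67, 1.60, 0.11 and 0.78) were lowest at 12 h.

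Complement C3 (0.00373; 0.36, 0.78, 1.41 and 1.60) was larger at later times. Aqp2 (0.0102; 4.36, 5.25, 4.31 and 5.34) was larger at 6 and 24 h than at 3 and 12 h. The lowered Rasl11a (0.0302; -2.02, -1.53, -1.0 and -1.20) was lowest at 3 h. Avpr2 (0.026; -0.52, -0.11, 0.02 and 0.09), not called in the pooled model, was called lower at 3 h alone.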

How the results depend on the processing

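The limits are few libraries per group, a covariate that differs between treatments, and effects close to the smallest detectable, so counts depend on settings. Every one of the 216 higher genes kept a positive effect under each of the 44 alternatives, except 1 gene without the libraries of 3 h and 1 in the fit without covariate on genes of at least 5 CPM. Every one of the 52 lower genes kept a negative effect except 6 without the covariate over all tested genes. Of 85 named called genes 39 were called under all alternatives and 0 changed sign. Calls were lost by 37 with limma on log2(TPM + 1), 13 with RLE scaling, 9 without the covariate and 3 with DESeq2.

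In all, 295 genes were called, with 216 higher and 52 lower at 5 CPM or more, 200 and 51 of them under 2-fold. Without the covariate these 5 numbers were 8885, 4241, 1342, 4221 and 1337. Without it on genes of at least 5 CPM alone they were 3428, 1502, 1926, 1487 and 1918, and with it on those genes 467, 337, 130, 321 and 129. With TPM + 1 in limma 144 were called, 70 higher (63 under 2-fold) and 65 lower (64 under 2-fold). With TPM + 0.1, 158 were called, 76 higher (66 under 2-fold) and 68 lower (67 under 2-fold). With the number of genes with a count as covariate 33 lower genes were called (32 under 2-fold), and with no filter 30 (29). At a threshold of 0.01, 184 were called, 24 of them lower (23 under 2-fold). Among 16 libraries with receptor shares found in both treatments (9 dDAVP and 7 Vehicle), chosen as an alternative after seeing the data like the fit without covariate at 5 CPM, 152 higher and 67 lower genes were called. Leaving out 1 library gave 169 to 343 calls, 123 to 261 higher, 32 to 68 lower, 106 to 245 higher and 31 to 67 lower under 2-fold. The lowest were without replicate 2 of Vehicle at 12 h. Of the called genes, 121 higher and 26 lower were kept in every such fit. Without the libraries of 6 h, 128 higher genes were under 2-fold. Without 12 h, 189, 130 and 112 were called in all, higher and higher under 2-fold. Without 24 h, the numbers were 182, 139, 24, 123 and 22.

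Same-numbered pairs of libraries correlated above 0.1 in 5 of 12 cases (-0.44 to 0.61) and in 0 of 12 with the covariate. With 3 libraries per group, such values cannot decide whether replicate numbers pair the libraries. With the replicate block 175 genes were called, 141 higher, 19 lower, 126 and 18 of them under 2-fold, 30 depended on time (76 without the block), and Scnn1g was among 22 named genes not called. Without the covariate the calls at 6, 12 and 24 h were 11320, 23 and 25, against 100, 88 and 104 with it; this was tried after seeing the data. Uncalled genes changed sign: Avpr2 (0.027 without the covariate, 0.025 without 3 h), Sgk1 (-0.049 without covariate at 5 CPM) and Aqp3 (0.0012 without 3 h). The causes were not tested.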

Other observations

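Further called genes, picked after their values were seen, are given here. Fras1, a partner of Frem2 in the Fraser complex of basement membranes, had an effect of -0.32 ± 0.06 (edgeR adjusted p = 0.00148, and 0.0517 without replicate 2 of Vehicle at 12 h). Rap1gap, which switches off the GTPase Rap1, was at -0.34 ± 0.06 (adjusted p = 0.000831) and Pik3ip1, an inhibitor of phosphoinositide 3-kinase, at -0.33 ± 0.06 (adjusted p = 0.00384). The lysosomal enzymes Galns and Smpd1 were at -0.29 ± 0.06 and -0.18 ± 0.04 (adjusted p = 0.00409 and 0.00383). Rap1gap, Galns and Smpd1 were not called without the covariate over all tested genes (adjusted p = 0.055, 0.226 and 0.749). Of the other sialyltransferases called lower beside St6gal1, St3gal6 (-0.21 ± 0.05) lost the call without replicate 1 of Vehicle at 24 h (adjusted p = 0.0687), and St6galnac2 (-0.15 ± 0.04) lost it in 12 of 24 fits without 1 library (up to 0.21 without replicate 2 of Vehicle at 12 h). Neither was called without the covariate over all tested genes (adjusted p = 0.786 and 0.681).

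On the higher side, 2 enzymes that store lipid as esters were called, Soat1 for cholesterol (0.79 ± 0.09, adjusted p = 2.66e-06) and Dgat2 for triglyceride (0.58 ± 0.07, adjusted p = 5.67e-06). Beside Idh1, the dehydrogenases H6pd, which makes NADPH in the endoplasmic reticulum (0.44 ± 0.05, adjusted p = 2.61e-06), and Gpd2, a mitochondrial enzyme of the glycerol phosphate shuttle (0.28 ± 0.04, adjusted p = 0.000118), were higher. Genes of innate defence were Lbp, which binds lipopolysaccharide (0.62 ± 0.07, adjusted p = 9.48e-07), and the NF-kB cofactor Nfkbiz (0.51 ± 0.06, adjusted p = 1.62e-06). Atp6v0a4, a proton pump subunit of intercalated cells, rose by 0.57 ± 0.09 (adjusted p = 0.000379). The kinase Cdk18 (0.61 ± 0.06), the growth hormone receptor Ghr (0.54 ± 0.06) and the transglutaminase Tgm2 (0.83 ± 0.10) were called too. Each gene in this paragraph stayed called with any 1 library left out, as did 121 of all 216 higher genes. Each was also called with no covariate, as were 214 of the 216, so that fit hardly sets them apart.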
